A study of Homo sapiens with 9 samples.

Results

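The inducible HSP70 system was followed as 10 genes: the heat-inducible HSP70 genes HSPA6 and HSPA1B, the co-chaperone genes BAG3, DNAJB1, HSPH1 and HSPA4L, the small heat shock protein gene HSPB1, the collagen chaperone gene SERPINH1, the constitutive HSP70 gene HSPA8 and the heat shock factor gene HSF1. The members were every probe set annotated to exactly 1 of these symbols, which gave 31 of 49293 probe sets and 10 of 18132 genes. The genes were chosen by their function and by the conjugate against untreated differences on these arrays. HSPA6, HSPA1B and BAG3 were also chosen from the untreated values, since 1 untreated array lay far from the others. The study measured Y79 cells, an established human retinoblastoma line, on 9 microarrays in 3 groups of 3: cells left untreated, cells given gold nanoparticles without peptide (bare particles), and cells given gold nanoparticles conjugated with an HDM2 peptide (conjugate). All groups were grown in RPMI medium, and some labels write the line as Y97. The sources used here give neither dose nor time, nor whether arrays came from separate cultures. The p-values therefore reflect array-to-array spread alone, which may be technical.

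HSP70 proteins bind unfolded stretches of other proteins and release them in a cycle driven by ATP. J-domain proteins such as DNAJB1 deliver substrates and start ATP hydrolysis, and exchange factors such as BAG3, HSPH1 and HSPA4L reopen the cycle by removing ADP. HSF1 is held inactive in unstressed cells and, when unfolded protein accumulates, forms trimers that bind heat shock elements in promoters of heat shock genes. HSPA8 supplies HSP70 activity in unstressed cells, whereas HSPA6 is nearly silent there and strongly induced by proteotoxic stress.

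Heat shock elements are inverted repeats of the triplet GAA. The 250 bases before each RefSeq transcription start (GRCh38.p14) were searched for GAANNTTC and TTCNNGAA, each of which reads the same on both strands and which may overlap each other. Of 35116 promoters searched, 11.6% held at least 1 match, 1.3% at least 2 and 0.15% at least 3 (5.8% held GAANNTTC and 6.6% TTCNNGAA). Of 9 members with a promoter entry, 7 held a match before at least 1 start and 4 held at least 2. HSF1 had no entry. The shares count each promoter, whereas a member with several starts was counted by the start with most matches. The member counts are therefore not on the same unit as the shares. A match is a run of letters, not a shown binding site. The windows below are those of the 3 HSP70 genes, of the co-chaperone genes BAG3 and DNAJB1 and of SERPINH1, shown for their large differences between groups or, for HSPA8, as the constitutive counterpart. They are printed 5′ to 3′ with matches in capitals. They are chr1:161524290-161524539 (plus strand) for HSPA6, chr6:31827488-31827737 (plus) for HSPA1B, chr19:14518398-14518647 (minus, of the 3 DNAJB1 starts the 1 with matches) for DNAJB1, chr11:75562003-75562252 (plus, the first of its starts) for SERPINH1, chr11:123062137-123062386 (minus) for HSPA8 and chr10:119651130-119651379 (plus) for BAG3.
HSPA6: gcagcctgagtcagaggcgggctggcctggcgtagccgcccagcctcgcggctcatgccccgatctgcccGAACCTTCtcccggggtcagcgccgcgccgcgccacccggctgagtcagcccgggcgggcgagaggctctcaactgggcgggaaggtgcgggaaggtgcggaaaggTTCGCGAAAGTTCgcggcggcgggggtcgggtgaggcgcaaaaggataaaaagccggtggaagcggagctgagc
HSPA1B: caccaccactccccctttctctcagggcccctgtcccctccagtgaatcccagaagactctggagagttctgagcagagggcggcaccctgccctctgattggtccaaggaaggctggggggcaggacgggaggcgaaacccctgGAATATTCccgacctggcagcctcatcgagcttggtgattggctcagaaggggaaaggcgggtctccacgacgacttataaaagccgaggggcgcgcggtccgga
DNAJB1: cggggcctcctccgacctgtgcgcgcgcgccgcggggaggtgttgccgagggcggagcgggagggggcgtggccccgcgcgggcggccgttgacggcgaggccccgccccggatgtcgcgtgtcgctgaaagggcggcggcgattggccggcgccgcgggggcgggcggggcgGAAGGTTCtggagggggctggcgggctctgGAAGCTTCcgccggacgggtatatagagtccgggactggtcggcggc
SERPINH1: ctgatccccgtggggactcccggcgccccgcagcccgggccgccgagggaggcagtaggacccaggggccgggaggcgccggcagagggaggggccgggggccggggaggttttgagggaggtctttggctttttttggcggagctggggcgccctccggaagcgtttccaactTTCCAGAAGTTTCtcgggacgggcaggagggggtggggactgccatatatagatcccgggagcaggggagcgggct
HSPA8: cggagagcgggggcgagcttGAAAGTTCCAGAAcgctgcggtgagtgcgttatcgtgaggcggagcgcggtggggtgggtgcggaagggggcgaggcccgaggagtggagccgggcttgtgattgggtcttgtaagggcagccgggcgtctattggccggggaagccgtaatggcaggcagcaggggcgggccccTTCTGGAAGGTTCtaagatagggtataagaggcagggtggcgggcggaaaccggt
BAG3: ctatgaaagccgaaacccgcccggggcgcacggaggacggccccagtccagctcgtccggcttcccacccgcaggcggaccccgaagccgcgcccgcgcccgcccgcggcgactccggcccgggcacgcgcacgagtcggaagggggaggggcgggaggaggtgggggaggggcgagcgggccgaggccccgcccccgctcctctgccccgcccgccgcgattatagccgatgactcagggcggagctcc
HSPA6 held 3 matches, SERPINH1 and DNAJB1 2 each, HSPA1B 1 and HSPA8 4. BAG3 had no match in its window, and the constitutive HSPA8 had the most of the 9 genes. HSPB1 held 1 match, HSPA4L held 1 before 1 of its 3 starts, and HSPH1 held none.

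Values are log2 distances from a baseline that differs by probe set, so they show differences between arrays and no absolute level, and no gene can be set against another by level. Across all 18132 genes the median difference was 0.25 for conjugate against untreated, -0.06 for bare particle against untreated and 0.30 for conjugate against bare particle. Probe sets with a bright baseline (log2 level 8 to 16) had a median difference of -1.15 between conjugate and untreated arrays, and dim ones (2 to 4) of 0.50. Hybridization controls, transcripts added in fixed amounts, lay at 1.33 to 1.88 on conjugate arrays, -0.43 to -0.32 on untreated arrays and -0.54 to 0.15 on bare particle arrays. Poly-A controls, added before labelling, lay at 0.79 to 1.56, -1.36 to -0.05 and -0.46 to 0.17 on the same groups, and 18S ribosomal RNA at -2.70 to -2.11, -0.93 to 0.81 and 0.018 to 0.25. Of the 31 probe sets 18 had a bright baseline, 11 a middle one and 2 a dim one. The part of these shifts in the members' differences was not tested, and differences after centring each array within the baseline classes are given with the comparison of conjugate and bare particle arrays. As markers of the labelled cells, 6 of 12 retinoblastoma and photoreceptor genes had a bright probe set (CRX, MYCN, NRL, OTX2, PDE6H and RBP3), against 0 of 8 fibroblast genes, 0 of 5 blood cell genes and 2 of 6 Mueller glia genes (GLUL and VIM).

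HSPA6 and HSPA1B, which code for the heat-inducible HSP70 proteins, were lowest on the bare particle arrays, highest on the conjugate arrays, and split within the untreated group. HSPA6 (chromosome 1, probe set 11723050_a_at) lay at -0.84, -0.82 and -6.37 on untreated replicates 1, 2 and 3. It lay at -6.76, -6.07 and -5.88 on the bare particle arrays and at 0.86, 0 and 1.50 on the conjugate arrays. Untreated replicate 3 thus lay inside the bare particle range, and the other untreated arrays lay just below the lowest conjugate array. HSPA1B (chromosome 6, probe set 11729120_x_at) gave -1.46, -1.40 and -3.83 on untreated arrays. Its bare particle values were -3.97, -3.63 and -3.83, and its conjugate values 0.0049, -0.93 and 0.92. As for HSPA6, untreated replicate 3 lay within the bare particle range while replicates 1 and 2 stood between it and the conjugate arrays. HSPA1A, the near-identical neighbour of HSPA1B, had no probe set of its own, and the HSPA1B probe set is of the type marked as cross-hybridizing, so its signal may come from both genes.

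**Figure D1:**
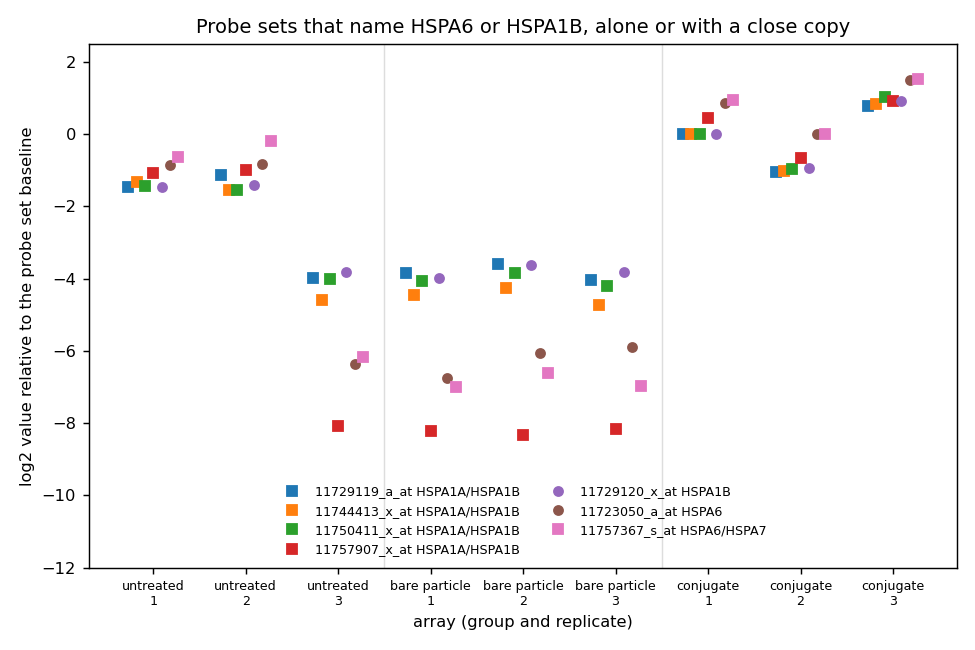
Log2 value relative to the baseline (vertical axis) of each probe set that names HSPA6 or HSPA1B, on the 9 arrays (horizontal axis); circles are probe sets with 1 symbol, squares those shared with HSPA7 or HSPA1A. On untreated replicate 3 all 7 probe sets lie between -8.07 and -3.83, near their bare particle values, and on untreated replicates 1 and 2 between -1.56 and -0.20.

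The conjugate against bare particle difference of HSPA6 was 7.03 with a standard error of 1.23 (130.3-fold with 3 arrays in each group; limma adjusted p = 0.00149), and that of HSPA1B was 3.80 (error 0.63, limma adjusted p = 0.00123). Both rose, with no overlap of the groups. The sizes of these differences do not use the untreated arrays, but the errors and p-values do, since limma took the spread from all 9 arrays. Without untreated replicate 3 the error was 0.37 for HSPA6, 0.39 for HSPA1B and 0.20 for BAG3. The conjugate arrays are shared with the comparison known when the genes were chosen. No detection call was used here, so low values may lie at background and the folds may be understated. Against untreated cells, values that took part in the choice and were not tested, the conjugate difference was 3.47 (error 1.23) for HSPA6 and 2.23 (error 0.63) for HSPA1B. Without untreated replicate 3 these were 1.62 (error 0.42) and 1.43 (error 0.44), and against that array alone they were 7.16 and 3.82.

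BAG3 codes for an exchange factor that links HSP70 to small heat shock proteins and to autophagy. Its probe set (11757360_s_at, chromosome 10) lay at -0.68, -0.45 and -3.20 on the untreated arrays, -2.64, -2.85 and -2.69 on the bare particle arrays and 0.63, 0 and 0.59 on the conjugate arrays. Untreated replicate 3 was the lowest of all 9 arrays, and the other untreated arrays stood between the groups and closer to the conjugate. BAG3 rose with the conjugate against the bare particle by 3.13 (error 0.59, limma adjusted p = 0.00196). Its conjugate difference against untreated cells, not tested, was 1.85 with all arrays and 0.97 without untreated replicate 3.

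DNAJB1 codes for the J-domain protein of the cytosol that feeds substrates to inducible HSP70. As the mean of 3 probe sets it lay at -1.08, -1.07 and -1.98 on untreated arrays, -1.85, -1.73 and -1.99 on bare particle arrays and 0.58, -0.17 and 1.02 on conjugate arrays. The conjugate arrays lay above all others, and untreated replicate 3 again lay inside the bare particle range. DNAJB1 rose against bare particles by 2.33 (error 0.32, limma adjusted p = 7.3e-04), in each of its probe sets (2.12 to 2.56). The split of the untreated arrays was not equal over them. Probe set 11715445_a_at lay at -0.36, -0.58 and -2.02 on the untreated arrays, whereas 11715446_a_at gave -1.47, -1.22 and -1.92.

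HSPH1 and HSPA4L code for HSP110 proteins, relatives of HSP70 that act as exchange factors, and they went in opposite directions. HSPH1, the mean of 8 probe sets, lay at -0.12, -0.76 and -0.70 on untreated arrays, -1.61, -1.37 and -1.66 on bare particle arrays and 0.034, -0.18 and -0.07 on conjugate arrays. This mean did not show the split, since untreated replicate 2 was the lowest of its group, and all untreated arrays lay above all bare particle arrays. On 11749659_s_at (-0.50, -0.96 and -1.23), 11753964_x_at, 11755206_x_at and 11758639_s_at untreated replicate 3 was the lowest of its group. On the other probe sets replicate 2 was. HSPH1 rose with the conjugate against bare particles by 1.47 (error 0.19, limma adjusted p = 6.2e-04), with 7 of 8 probe sets past the threshold and a range of 0.58 to 2.06. Against untreated cells the conjugate groups overlapped (0.45, error 0.19), and the probe sets ranged from -0.35 to 0.96. This difference was 1.41 after centring within baseline classes, where the groups no longer overlapped, and 0.98 after quantile normalization.

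HSPA4L, the mean of 3 probe sets, lay at 0.31, -0.09 and -0.46 on untreated arrays, -0.20, -0.0054 and -0.18 on bare particle arrays, and -2.50, -2.36 and -1.62 on conjugate arrays. It was the only member lower on every conjugate array than on every other array. Its fall against bare particles was -2.03 (error 0.26, limma adjusted p = 5.6e-04) and was seen in all 3 probe sets (-2.54 to -1.57). After quantile normalization it stood at -0.81 and did not pass (limma adjusted p = 0.0583).

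HSPB1, a small heat shock protein that holds unfolded proteins for HSP70, had 1 probe set (11756054_x_at, chromosome 7). It lay at -0.99, -1.52 and -2.13 on untreated arrays, -2.24, -1.92 and -2.06 on bare particle arrays, and 0.18, -0.17 and 0 on conjugate arrays. All conjugate arrays were higher than all others, and the untreated arrays ran from well above the bare particle range down into it. HSPB1 rose against bare particles by 2.08 (error 0.26, limma adjusted p = 5.3e-04).

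SERPINH1 codes for HSP47, a chaperone of the endoplasmic reticulum that binds procollagen and is a classic HSF1 target. Its mean of 3 probe sets was -1.11, -2.24 and -3.38 on untreated arrays, -3.22, -3.50 and -3.55 on bare particle arrays, and 0.63, 0.49 and 0.16 on conjugate arrays. The untreated arrays were spread over 2.27, each at a different level, with replicate 3 among the bare particle arrays. It rose by 3.85 (error 0.45, 14.4-fold, limma adjusted p = 4.1e-04) against bare particles, and its probe sets gave 3.20 to 4.18. None of the 8 fibroblast markers had a bright probe set. For conjugate against untreated 4 of them passed as higher and none as lower (median 0.46). Of the blood cell markers 4 of 5 passed as higher and none as lower (median 0.64), of the Mueller glia markers 2 of 6 as higher and 2 as lower (median 0.36), and of the retinoblastoma and photoreceptor markers 0 of 12 as higher and 6 as lower (median -0.80). Over all genes 33.1% passed as higher and 25.1% as lower (median 0.25), and dim probe sets had a median of 0.50. No centred values are given for these markers. The part of these markers in the SERPINH1 values was not tested.

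**Figure D2:**
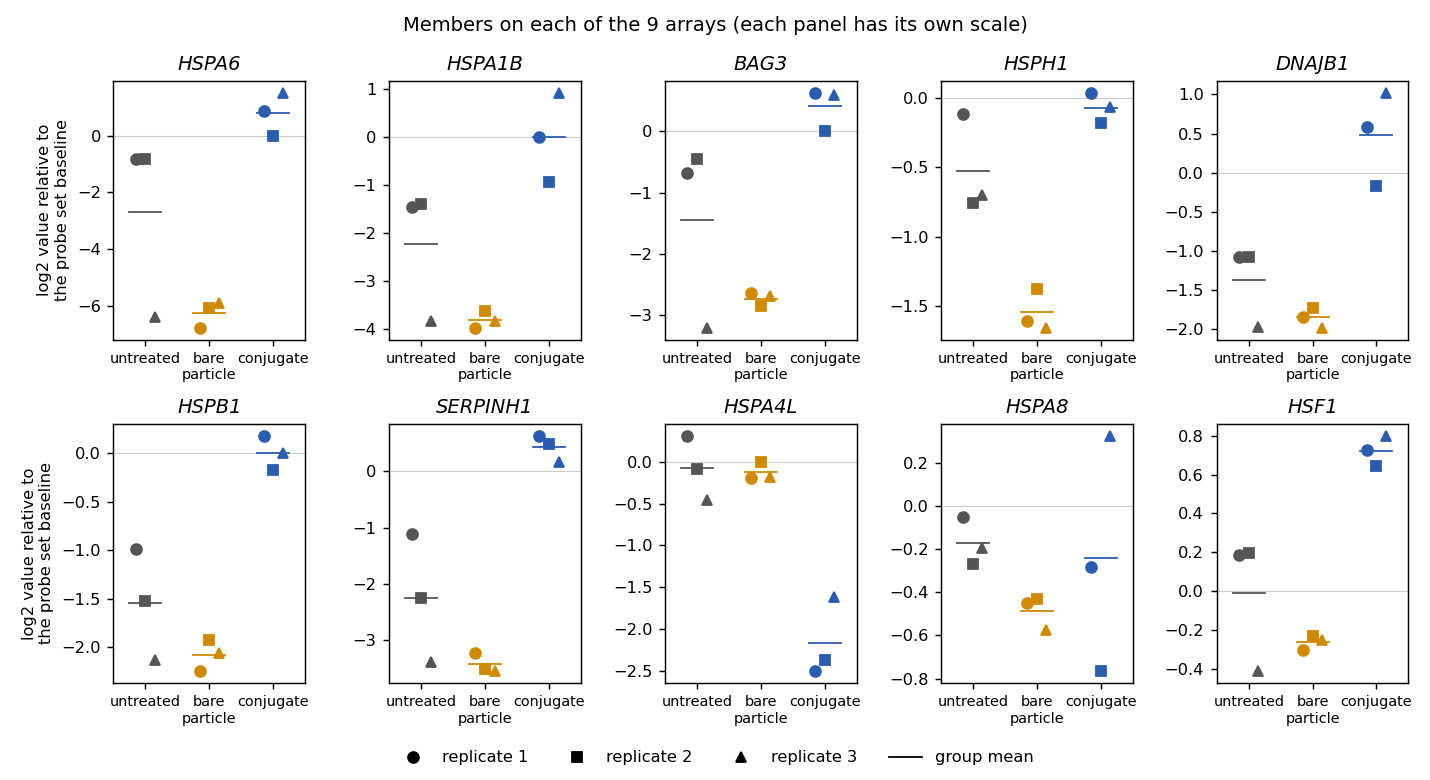
Log2 value relative to the probe set baseline (vertical axes, each panel with its own scale) of the 10 genes in the untreated, bare particle and conjugate groups (horizontal axes); symbols are replicates and lines are group means. For HSPA6, HSPA1B, BAG3, DNAJB1, HSPB1 and SERPINH1, untreated replicate 3 sits with or below the bare particle arrays, and all conjugate arrays sit above the rest.

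HSPA8 codes for the constitutive HSC70 and did not move as 1 gene. The mean of its 9 probe sets was -0.05, -0.27 and -0.20 on untreated arrays, -0.45, -0.43 and -0.58 on bare particle arrays, and -0.28, -0.77 and 0.32 on conjugate arrays. The conjugate arrays spanned both other groups, and the difference against bare particles was 0.24 (error 0.24, limma adjusted p = 0.377). Single probe sets differed in sign: in the fit over all probe sets 4 rose and 3 fell, and the range was -1.97 to 3.23. Of those that rose, 11757166_at and 11757167_x_at carry an accession that RefSeq gives to SNORD14D, a small nucleolar RNA gene at chr11:123058909-123058995 inside the HSPA8 gene (chr11:123057489-123062462), so which transcript they measure is uncertain. The probe set that rose most, 11757115_s_at, lay at 0.15, 0.10 and -1.81 on the untreated arrays. It lay at -2.25, -2.13 and -1.71 on bare particle arrays and 0.23, 0.72 and 2.67 on conjugate arrays. Of the 9 it alone put untreated replicate 3 more than 1 below both other untreated arrays. By contrast 11720916_s_at, whose accession RefSeq gives to HSPA8, lay at 0, -0.39 and 0.02 on untreated arrays and -1.09, -1.44 and -0.47 on conjugate arrays. It fell against bare particles by 0.67 (error 0.26, limma adjusted p = 0.0417), but this probe set has a bright baseline. After centring within baseline classes its difference turned to 0.50. The other probe sets that fell, 11756622_a_at and 11762261_x_at, stayed lower, at -0.80 and -1.19. The HSPA8 mean passed as higher after centring within baseline classes (0.61, limma adjusted p = 0.00907), and turned to -0.43 when the median of its probe sets was taken, without passing (limma adjusted p = 0.156).

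**Figure D3:**
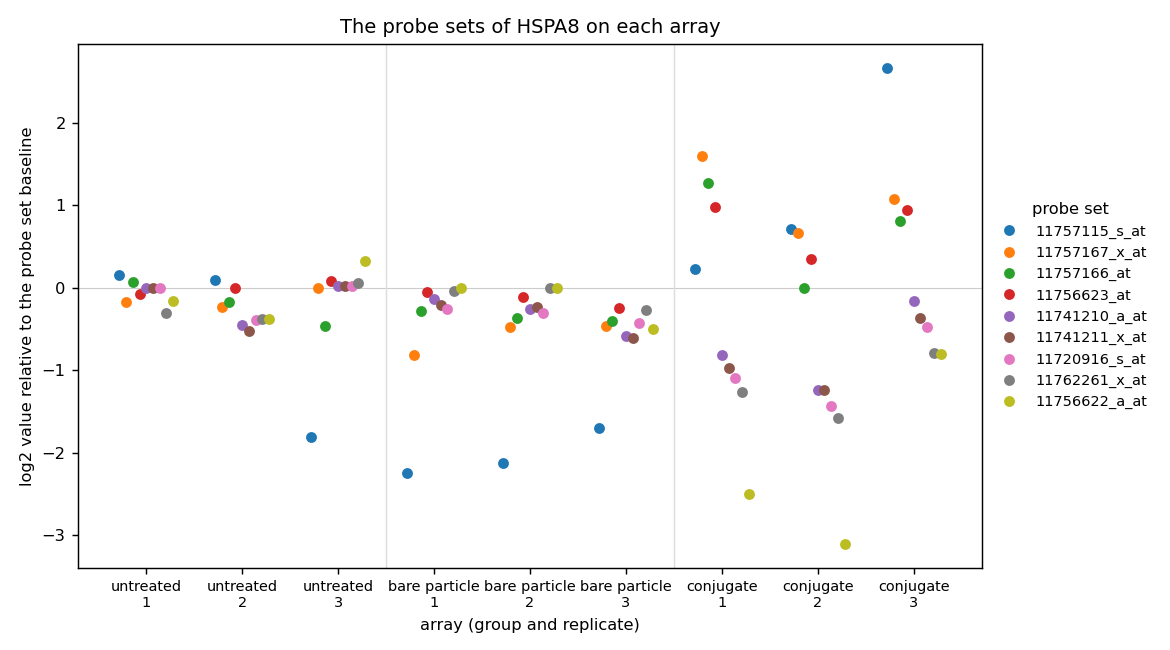
Log2 value relative to the baseline (vertical axis) of the 9 HSPA8 probe sets, in colours, on each array (horizontal axis). On the conjugate arrays 4 probe sets lie at 0 or above and 5 lie below 0, and 11757115_s_at is at -1.81 on untreated replicate 3 and at -2.25 to -1.71 on the bare particle arrays.

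HSF1, the heat shock factor gene, had 1 probe set (11723695_s_at). It lay at 0.19, 0.20 and -0.41 on untreated arrays, -0.30, -0.23 and -0.25 on bare particle arrays and 0.72, 0.64 and 0.80 on conjugate arrays. The conjugate arrays stood apart from all others, and untreated replicate 3 was the lowest array. HSF1 RNA rose by 0.98 (error 0.18, 1.98-fold, limma adjusted p = 0.00192) against bare particles. HSF1 is controlled mainly at the protein level, which arrays of RNA do not measure.

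Untreated replicates 1 and 2 both lay at least 2-fold above replicate 3 (1 on the log2 scale) in 39 of 18132 genes (0.215%), and both at least 2-fold below it in 112 (0.618%). Of the members 4 showed the first pattern: HSPA6 (5.54 and 5.55), BAG3 (2.52 and 2.76), HSPA1B (2.36 and 2.43) and SERPINH1 (2.27 and 1.14). HSPA6, HSPA1B and BAG3 were picked for this pattern, so nothing is read from the count. The probe sets of 18S ribosomal RNA also set replicate 3 apart, in the other direction, with means of -0.93, -0.68 and 0.81 on untreated replicates 1, 2 and 3, and poly-A controls lay at -0.45, -1.36 and -0.05. Their part in the split was not tested. DNAJB1 came next (0.90 for each), then HSPB1 (1.14 and 0.61) and HSF1 (0.60 and 0.60). Replicates 1 and 2 both lay above replicate 3 in 8 members and in 45.9% of all genes. For 8 members replicate 3 was nearer to the mean of the bare particle arrays than to that of replicates 1 and 2, which held for 61.1% of all genes. HSPH1 and HSPA8 were the exceptions. HSPA6, HSPA1B and BAG3 are among the 8 members each time, so nothing is read from these counts either. Among 72 measured related chaperone genes, listed by function, 1 had both replicates at least 2-fold above replicate 3. This was ZFAND2A, an arsenite-inducible gene of the HSF1 response (-1.06, -1.46 and -2.50 on untreated replicates 1, 2 and 3).

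Between conjugate and bare particle arrays, 8 of 10 members passed as higher and 1 as lower, while 43.2% of all genes passed as higher and 29.1% as lower. Of their 31 probe sets 22 passed as higher and 6 as lower, against 36.3% and 28.3% of all probe sets. The members' median was 2.20, and that of all genes 0.30. The conjugate arrays are shared with the comparison by which the genes were chosen, so these counts and medians are no independent support. The groups did not overlap for the same 9 members, against 45.9% of genes higher and 30.5% lower. The 8 rises passed in every alternative that gave a value, with HSPA6 at 5.65 to 8.19 and HSF1 at 0.81 to 1.05. After centring within baseline classes the differences were 8.19 for HSPA6, 4.97 for HSPA1B, 3.06 for BAG3, 3.08 for DNAJB1, 2.49 for HSPH1, -2.11 for HSPA4L, 3.25 for HSPB1, 4.60 for SERPINH1 and 0.91 for HSF1. All kept the direction and passed.

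Between conjugate and untreated arrays, 7 members had conjugate values above all untreated values and HSPA4L had them below, where 36% and 23.9% of all genes did so. This comparison took part in the choice of genes, and its counts support nothing. The sizes depended on untreated replicate 3 and on the scaling. Without that array SERPINH1 moved from 2.67 to 2.10, DNAJB1 from 1.85 to 1.55, HSPB1 from 1.55 to 1.26, HSF1 from 0.73 to 0.53 and HSPA4L from -2.08 to -2.27. After centring within baseline classes HSPA1B stood at 3.33, HSPB1 at 2.65, SERPINH1 at 3.38 and DNAJB1 at 2.56. After quantile normalization HSPA4L stood at -0.73, HSPB1 at 2.09 and HSF1 at 0.50.

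Between bare particle and untreated arrays, 0 of the 7 members open to a test passed in limma, as did 0 of 18132 genes in the lower direction (0%) and 4 in the higher (0.0221%). All 10 members had a mean below that of untreated cells, and 41% of all genes had a mean above it. HSPA6, HSPA1B and BAG3 were picked from the untreated values, so nothing is read from this count. Against untreated replicate 3 alone only HSPH1, SERPINH1 and HSPA8 stayed lower. The groups did not overlap for 2 members, HSPH1 and HSPA8, both lower, where 21.5% of all genes did so as lower and 12.4% as higher. Of the 7 members tested, 2 had an unadjusted limma p under 0.05, HSPH1 and SERPINH1, both lower. Of all genes 972 did (5.36%), 599 as higher and 373 as lower. HSPH1 came nearest, at -1.02 (error 0.19, limma adjusted p = 0.361). HSPH1 passed as lower when each group was given its own array weight (limma adjusted p = 0.00709) and after quantile normalization (-1.46, limma adjusted p = 0.00941). Shares of all genes called under these settings are not given. SERPINH1 was at -1.18 (error 0.45, adjusted p = 0.864) with all arrays and -1.75 (error 0.32, adjusted p = 0.161) without untreated replicate 3. HSPA6, not tested here, was at -3.56 with all arrays, -5.41 without untreated replicate 3, and 0.14 against that array alone, so both the size and the direction rested on which untreated arrays were used. These comparisons share their untreated arrays.

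**Figure D4:**
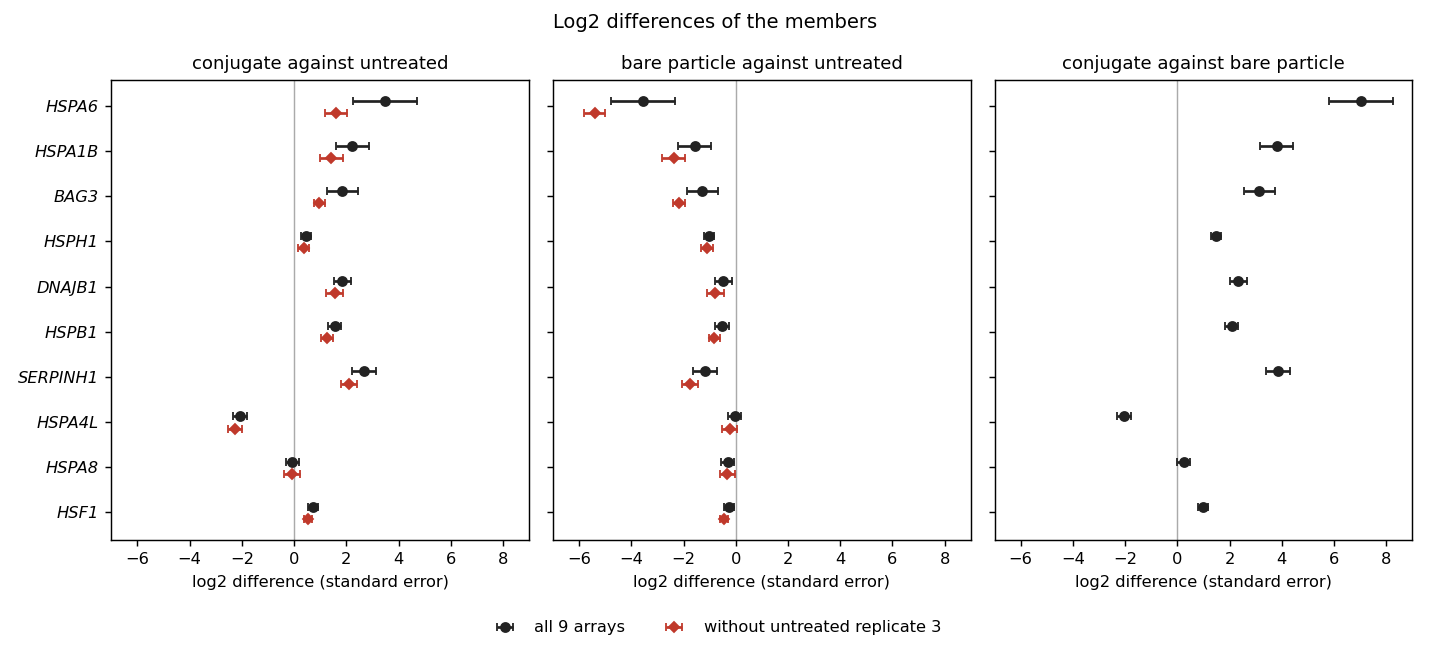
Log2 differences (horizontal axes, bars are standard errors from limma) of the 10 genes in 3 comparisons; black circles use all 9 arrays and red diamonds leave out untreated replicate 3. Without that array HSPA6 moves from 3.47 to 1.62 for conjugate against untreated and from -3.56 to -5.41 for bare particle against untreated.

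Related chaperone genes, 72 measured of 79 listed by function, fell more often than they rose. For conjugate against untreated 13 rose and 32 fell in limma (33.1% and 25.1% of all genes), with a median of -0.54, and for conjugate against bare particle 17 rose and 36 fell (43.2% and 29.1% of all genes), with a median of -0.63. Centring within baseline classes changed these splits to 17 and 23 and to 22 and 26, and quantile normalization to 7 and 8 and to 16 and 20. With dim probe sets left out, 8 rose and 32 fell of 66 measured for conjugate against untreated. Shares of all genes called under these settings are not given, so these splits, here and in the lists below, are not set against all genes. For bare particle against untreated none passed in limma, and 3 of 72 had an unadjusted p under 0.05 (BAG2, CRYAB and HSPB8), against 5.36% of all genes.

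Most falls were in the lists of HSP70 family, J-domain and cofactor genes. Of 10 other HSP70 family genes 6 fell and 2 rose with the conjugate against untreated cells. The falls included HSPA13, of the endoplasmic reticulum (-2.28, limma adjusted p = 0.00146), and HSPA9, the mitochondrial HSP70 (-1.95, adjusted p = 0.00306). The rises were HSPA12B (0.66, adjusted p = 0.00739) and the testis-type HSPA1L (1.09, adjusted p = 0.00488). Of 20 other J-domain genes 13 fell and 2 rose, with DNAJB6 at -1.38 (adjusted p = 0.0022) and DNAJB9 at -1.36 (adjusted p = 0.00164), and with DNAJA4 at 0.88 (adjusted p = 0.00934) and DNAJB2 at 0.74 (adjusted p = 0.012). Of 12 other HSP70 cofactors 7 fell and none rose, among them the exchange factor BAG4 (-1.33, adjusted p = 0.0021) and the mitochondrial exchange factor GRPEL2 (-1.62, adjusted p = 0.00179). After centring within baseline classes the falls and rises in these lists were 5 and 0, 10 and 3, and 5 and 1.

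Of the small heat shock proteins other than HSPB1 none fell: 5 of 7 rose against untreated cells (median 0.91), and 7 of 7 against bare particles (median 1.26; 4 and 6 rose after centring within baseline classes). HSPB8, the partner of BAG3 in selective autophagy, rose by 0.91 against untreated cells (adjusted p = 0.00227), and HSPB9 rose by 1.27 (adjusted p = 0.00182). CRYAB, alpha-B crystallin, was singled out after its values were seen. It lay at -0.17, -0.53 and -1.42 on untreated arrays, -1.86, -1.52 and -1.50 on bare particle arrays and 0.70, 1.16 and 0.24 on conjugate arrays. It showed untreated replicate 3 next to the bare particle range, and it rose against bare particles by 2.33 (limma adjusted p = 7.6e-04).

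In the HSP90 system 1 of 10 genes rose and 3 fell against untreated cells. The stress-inducible HSP90AA1 rose by 0.72 (adjusted p = 0.0186), and the mitochondrial HSP90 TRAP1 (-1.45, adjusted p = 0.00871) and the cyclophilin PPID (-2.25, adjusted p = 0.0078) fell. Of the 2 mitochondrial chaperonin genes HSPD1 fell by 0.71 (adjusted p = 0.0363). Among other heat shock factors and partners HSF4 (1.28, adjusted p = 0.00172) and HSF5 (0.74, adjusted p = 0.0391) rose and IER5 fell (-1.36, adjusted p = 0.0192). Of 6 other HSF1-induced genes ZFAND2A rose by 1.30 (adjusted p = 0.0241) and HIKESHI, the carrier of HSP70 into the nucleus, fell by 0.68 (adjusted p = 0.0215), and 4 did not pass. After centring within baseline classes 4 of the 6 HSF1-induced genes rose and none fell. HSPD1 and IER5 were no longer called, HSF5 stood at 0.25, and 3 HSP90 genes rose and 3 fell. Centring turned the median of the HSF1-induced list from 0.02 to 0.69 and that of the HSP90 list from -0.45 to 0.09.

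**Figure D5:**
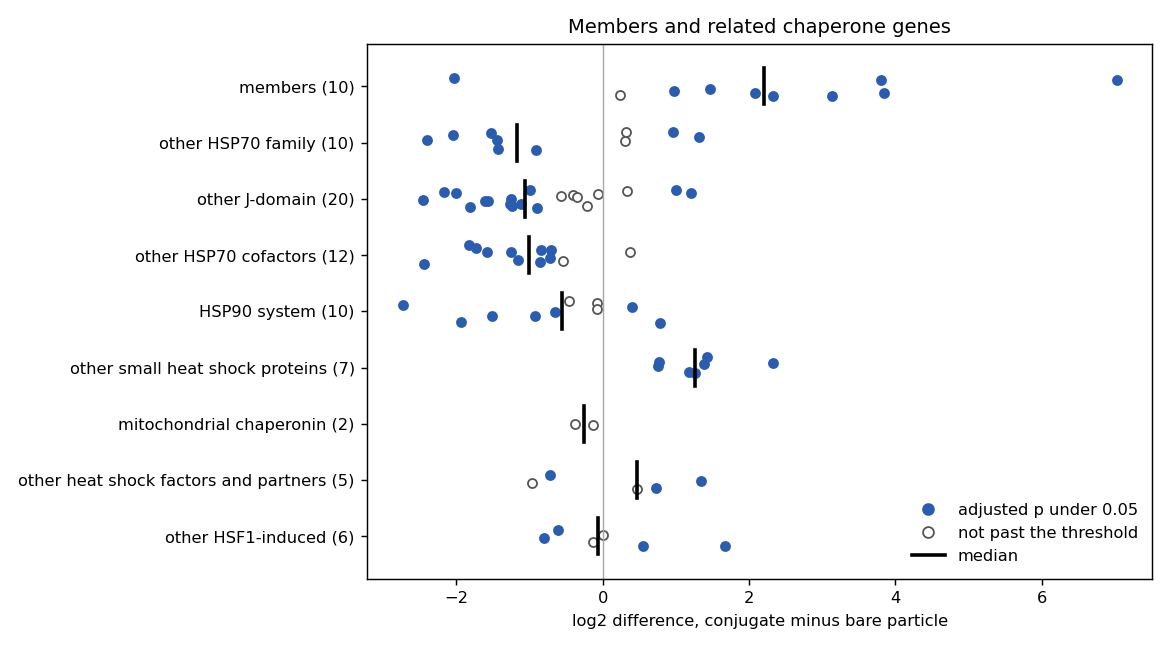
Log2 difference between conjugate and bare particle arrays (horizontal axis) of the 10 members and of 72 related chaperone genes by list (vertical axis, number measured in brackets); filled points passed limma at adjusted p under 0.05 and bars are medians. The members' median is 2.20 and that of the small heat shock proteins 1.26, and the medians of the other HSP70 family, J-domain and cofactor lists lie between -1.17 and -1.01.

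Over the 9 arrays the genes most like HSPA6 by Pearson correlation were BAG3 (0.99), NDUFS8 (0.98), PPP1R16B (0.98), HSPA1B (0.98) and ITSN2 (0.97). Those most like BAG3 were ITSN2 (0.99), HSPA6 (0.99), TNIP2 (0.98), LPAR2 (0.98) and HSPA1B (0.98). These are descriptions over arrays that share 3 treatments and the split of the untreated group. The sizes were far apart: from bare particles to conjugate ITSN2 changed by 0.35, NDUFS8 by 0.59 and LPAR2 by 1.05, against 7.03 for HSPA6. Among the members HSPA8 was least like HSPA6 in the positive direction (0.40), and HSPA4L ran opposite (-0.63).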

How the data were processed

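RNA from 9 samples of Y79 cells was hybridized as biotin-labelled cRNA to Affymetrix arrays, per the labels' protocols. The deposited table holds the authors' log2 values for 49395 probe sets, signed distances from a baseline that differs by probe set; log base, baseline, summary method and normalization are not given in the sources used here, and base 2 was taken. An exact 0 occurs on at least 1 array for 59.69% of probe sets. After 102 array controls were left out, 44988 of 49293 probe sets carried 1 symbol, 1832 several and 2473 none; single-symbol probe sets were averaged per gene. Baseline classes were read from the numerical step of the stored values. limma 3.58.1 in R 4.3.3 was fitted to all 18132 genes and 9 arrays without a replicate block, with Benjamini-Hochberg adjustment and a threshold of 0.05, and was tested on simulated data. The number of arrays limits the precision. Members and lists were chosen with earlier results of these data known; conjugate against untreated was therefore not tested for members, nor bare particle against untreated for HSPA6, HSPA1B and BAG3. Named were all members, up to 2 higher and 2 lower genes per related list by adjusted p for conjugate against untreated, and the 5 genes most like HSPA6 and BAG3. Deviations of same-numbered conjugate and untreated arrays correlated weakly (0.16, 0.11 and 0.29). For bare particles the correlations were -0.038, 5.3e-04 and 0.067 with untreated arrays and -0.056, 0.10 and 0.014 with conjugate arrays. No values are given for differently numbered arrays, so whether the numbers pair arrays cannot be told. Alternatives covered scaling, probe set summary, array weights, the block and each array left out.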

Additional observations from a re-analysis of the deposited data

Results flagged for a closer look

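Probe sets annotated to more than 1 gene were outside the members, and their conjugate minus untreated differences were 2.10 (11729119_a_at), 2.43 (11744413_x_at), 2.36 (11750411_x_at) and 3.62 (11757907_x_at) for HSPA1A with HSPA1B, and 3.15 (11757367_s_at) for HSPA6 with HSPA7. On 11757907_x_at the untreated arrays lay at -1.08, -0.99 and -8.07 and the bare particle arrays at -8.22, -8.33 and -8.16. Hybridization controls, which carry no RNA of the cells, also stood 2.06 higher on conjugate than on untreated arrays. The part of this in the differences of the members was not tested.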

How the results depend on the processing

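Dose, time and absolute level were not given, and 3 arrays a group limit every comparison. For related genes in conjugate against untreated, 45 calls became 15 after quantile normalization, 14 against untreated replicate 3 alone (a setting chosen after seeing the data, in which the lone array is assumed to vary like the other groups) and 117 of 210 with probe sets as the unit; leaving out 1 array gave 35 to 60. In conjugate against bare particle 53 of 72 genes were called, and 41 to 63 with 1 array left out. With probe sets as the unit 132 of 210 were called there. In bare particle against untreated 0 became 9 after quantile normalization and 2 with array weights, and the members went from 0 to 1 (HSPH1) under each. Shares of all genes called are given for the main fit alone. Counts under other settings are therefore not set against all genes. Member calls in conjugate against bare particle were 9 of 10 genes, and 28 of 31 with probe sets as the unit. With only specific probe sets they were 4 of 5 measured. That setting left out HSPA1B, BAG3, HSPB1, SERPINH1 and HSF1, whose probe sets are all of types marked as shared or cross-hybridizing. For bare particle against untreated the sign of HSPA4L turned to 0.082 after quantile normalization, 0.15 without untreated replicate 1 (range -0.23 to 0.15 with 1 array left out) and 0.33 against untreated replicate 3 alone. Against that array alone HSPA6 turned to 0.14, HSPA1B to 0.019, BAG3 to 0.48, DNAJB1 to 0.12, HSPB1 to 0.057 and HSF1 to 0.15. HSPA8 in conjugate against bare particle turned to -0.039 without conjugate replicate 3, -0.43 with the median of probe sets and -0.11 with only specific probe sets. It passed without conjugate replicate 2 (0.51, limma adjusted p = 0.0440) and after quantile normalization (0.97, limma adjusted p = 0.00640). With the replicate block 47, 0 and 53 related genes and 0 and 9 members passed. The cause of these changes was not tested.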
